A study of Homo sapiens with 9 samples.

Results

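Polycomb repressive complex 2 (PRC2) was described through the transcripts of 10 genes, chosen by name as its core and accessory subunits, among the 35762 gene symbols of the estimated count table. All 10 were present and all 10 passed the filter on low counts, as did 15345 genes in all. PRC2 places methyl groups on lysine 27 of histone H3, a mark of silenced developmental genes. Its core holds a catalytic subunit (EZH2 or EZH1), the scaffold SUZ12, the reader of the methyl mark EED, and a histone-binding subunit (RBBP4 or RBBP7). Accessory subunits guide the core to chromatin and define its classes: MTF2 and PHF1 are Polycomb-like proteins of the class PRC2.1, and JARID2 and AEBP2 belong to the class PRC2.2. In dividing cells EZH2 is the prevailing catalytic subunit, while EZH1 is known to be less tied to proliferation.

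The cells were TYUC-1, a cancer cell line labelled as neuroendocrine esophageal carcinoma and grown in suspension, and RNA was sequenced after poly-A selection. There were 3 groups of 3 libraries, taken on day 0, day 3 and day 6 of EPZ-6438 (tazemetostat), an inhibitor of the enzymatic activity of EZH2. The protocol gives 2 uM EPZ-6438 or DMSO, all 9 libraries have EPZ-6438 as their labelled treatment, and the labels leave unsaid if DMSO was given on day 0. No later vehicle library was analysed here, so drug exposure and days in culture cannot be told apart. One cell line stands behind every value, and the labels call the 3 libraries of a day biological replicates.

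Libraries held 21638874 to 31235055 estimated counts and are named by day and replicate, as in D0_2 for the second of day 0. D0_2 stood apart from D0_1 and D0_3: the chi-square per degree of freedom of its counts was 55.4 and 47.6 against theirs, compared with 4.94 between those libraries and 3.53 to 16.2 within day 3 and day 6. Of the defining neuroendocrine markers, CHGA was at 0 in all 9 libraries, and SYP, INSM1 and NEUROD1 had day means between 2.71 and 6.07 CPM (counts scaled to a common library size, after TMM). POU2F3 had 285 ± 7.11 CPM on day 0 and 227 ± 7.51 CPM on day 6 (SD, n = 3 each). Summed levels of 5 fibroblast, 5 leukocyte and 4 endothelial markers lay between 0.658 and 11.4 CPM per library, with MS4A1 at 0 throughout, against 1265 to 1590.1 CPM for 4 epithelial markers. The fibroblast sum went from 0.681 to 1.24 CPM on day 0 to 9.48 to 11.4 CPM on day 6, mostly COL1A1, and its part in the subunits' levels was not tested.

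The 7 subunits EZH2, EED, SUZ12, RBBP4, RBBP7, AEBP2 and MTF2 fell by day 3 and were lower on day 6, PHF1 rose by day 3, and JARID2 was higher on day 6. The day 3 call was lost in 7 of 17 alternative analyses for EZH2, 6 for RBBP7 and 4 for MTF2. EZH1 passed in none of the comparisons of days. On day 3, 7 of the 10 genes were lower, where 18.1% of all genes tested were, and 1 was higher, where 22.5% were (edgeR quasi-likelihood test, Benjamini-Hochberg adjusted p under 0.05). On day 6 against day 0, 7 were lower (25.7% of all genes) and 2 higher (28.9%). Genes that, like all 10 subunits, averaged 5 CPM or more were lower in 24.1% of cases and higher in 19.3% on day 3, and lower in 34.2% and higher in 22.7% on day 6. The median log2 fold change of the 10 was -0.32 on day 3 and -0.44 on day 6, beside 0.01 for all genes at both times. Genes averaging 5 CPM or more centred lower than all genes. A refit of these genes alone raised their log2 fold changes by a median of 0.05 on day 3 and 0.09 on day 6. Its medians were -0.004 and -0.009. No subunit moved by as much as 2-fold: fitted folds on day 6 ran from 0.613 for AEBP2 to 1.65 for PHF1. In bulk RNA, fewer cells with a transcript and less of it per cell cannot be told apart.

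**Figure D1:**
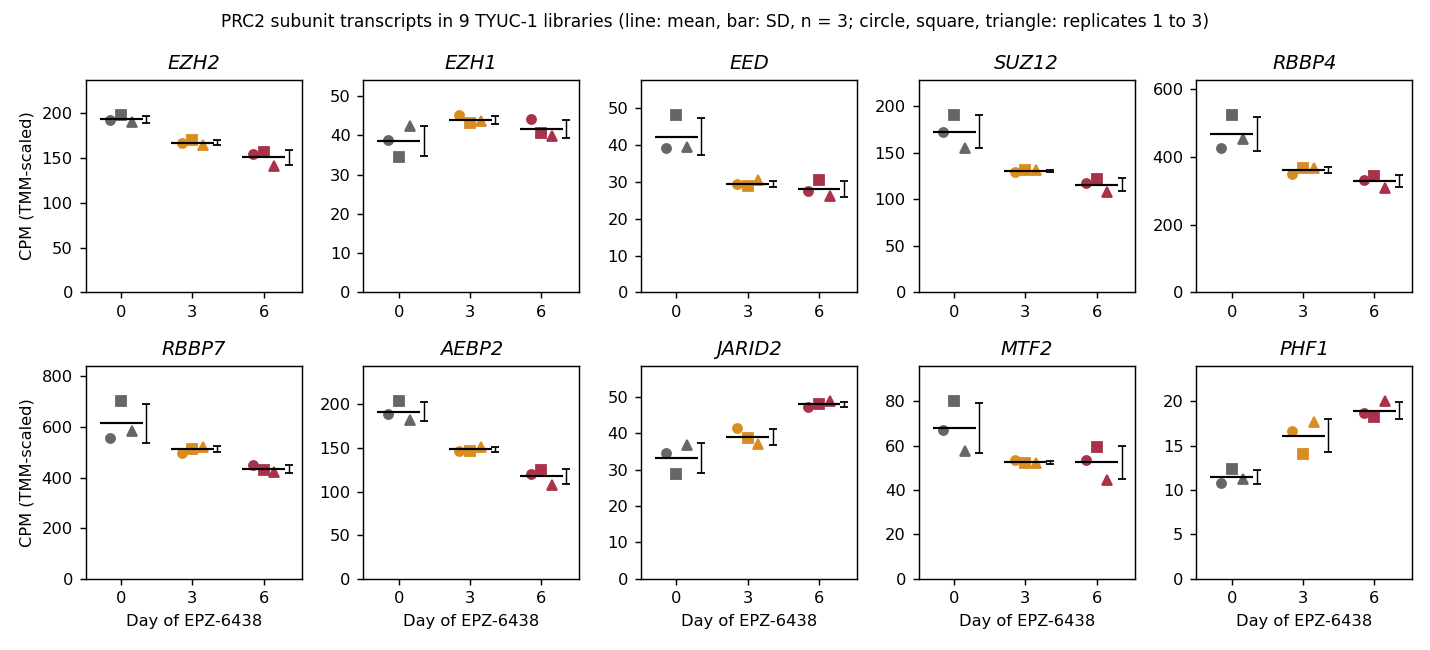
Levels of the 10 transcripts in CPM (vertical axes, each from 0) by day of EPZ-6438 (horizontal axes), with 1 point per library, a line at the mean and a bar of 1 SD beside it (n = 3). For EZH2, SUZ12, EED, RBBP4, RBBP7 and AEBP2 every day 6 point lies under every day 0 point, while for JARID2 and PHF1 every day 6 point lies above.

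Promoter sequences are given for 5 subunits as examples of genes that fell (SUZ12, AEBP2, EZH2), rose (JARID2) or did not pass (EZH1). All 10 genes matched RefSeq promoters (GRCh38.p14). E2F factors, which drive genes of the cell cycle, are known regulators of EZH2 and EED, and their textbook site was searched as the words TTTGGCGC, TTTCCCGC, TTTGCCGC and TTTCGCGC, on both strands, in the 250 bases before each start. Capitals mark a match. Stretches run 5′ to 3′ on the gene's strand and leave out bases in annotated exons (GENCODE 29).
SUZ12 (chr17:31936757-31937006, plus strand): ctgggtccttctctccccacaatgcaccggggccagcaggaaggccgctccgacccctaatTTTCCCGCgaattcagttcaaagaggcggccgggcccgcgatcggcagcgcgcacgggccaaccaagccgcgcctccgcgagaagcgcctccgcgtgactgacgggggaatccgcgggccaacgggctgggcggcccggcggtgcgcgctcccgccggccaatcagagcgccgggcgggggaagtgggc
AEBP2 (chr12:19440371-19440580, plus strand): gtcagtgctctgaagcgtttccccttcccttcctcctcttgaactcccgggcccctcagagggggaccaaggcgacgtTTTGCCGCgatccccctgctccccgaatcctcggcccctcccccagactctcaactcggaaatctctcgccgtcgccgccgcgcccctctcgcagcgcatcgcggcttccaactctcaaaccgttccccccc
EZH1 (chr17:42745050-42745290, minus strand): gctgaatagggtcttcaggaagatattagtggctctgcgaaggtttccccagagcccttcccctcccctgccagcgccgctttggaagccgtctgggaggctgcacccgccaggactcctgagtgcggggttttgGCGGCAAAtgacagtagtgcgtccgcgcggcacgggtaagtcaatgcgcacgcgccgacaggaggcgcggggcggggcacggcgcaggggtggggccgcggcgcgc
EZH2 (chr7:148884322-148884541, minus strand): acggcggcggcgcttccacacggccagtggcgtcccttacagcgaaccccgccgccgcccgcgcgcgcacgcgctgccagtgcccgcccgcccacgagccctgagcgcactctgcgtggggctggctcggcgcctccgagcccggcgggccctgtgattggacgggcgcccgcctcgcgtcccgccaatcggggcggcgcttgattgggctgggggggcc
JARID2 (chr6:15245819-15246068, plus strand): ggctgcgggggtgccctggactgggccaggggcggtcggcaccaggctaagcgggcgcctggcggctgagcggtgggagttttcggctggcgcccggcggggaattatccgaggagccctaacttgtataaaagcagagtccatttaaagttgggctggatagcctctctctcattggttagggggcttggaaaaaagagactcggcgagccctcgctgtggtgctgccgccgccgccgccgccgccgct
A match stood 189 bases before the start of SUZ12, 150 before that of AEBP2 and 115 before that of EZH1, the last on the other strand, so it occurred in 2 genes that fell and in 1 that did not pass. The other 7 genes had no match in these windows, EZH2 and EED included. Of 35116 RefSeq promoters 2.79% held a match, or 3.40% of 27305 genes. Before the first listed start, the 250 bases of SUZ12 held 34 CG pairs, those of EZH2 38 and those of EED 11, where the median of all promoters was 11. Annotated exons of the gene took up 209 of the 250 bases of EED and all 250 of PHF1. The AEBP2 window lay inside the annotated gene. For these genes the windows may therefore miss the sequence before other starts.

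EZH2 (chromosome 7, 148807383 to 148884321, minus strand, GRCh38), the catalytic subunit that EPZ-6438 blocks, had 192, 197 and 189.7 CPM in the day 0 libraries. It had 167, 169 and 165 CPM on day 3 and 154, 156 and 141 CPM on day 6. The 3 days did not overlap, and the library D6_3 was the lowest of the 9. The log2 fold change was -0.21 on day 3 (SE 0.07, 95% interval -0.36 to -0.06) and -0.36 on day 6 (-0.51 to -0.21), with edgeR adjusted p of 0.0289 and 0.00083. The day 3 call was lost without D0_1 (adjusted p = 0.0574), D0_3 (0.0505), D3_1 (0.0889), D3_2 (0.0789) or D3_3 (0.0906). It was also lost with library size as the only scaling (0.177) and among genes of at least 5 CPM (0.0674), in a range over 17 alternatives that began at 0.00354.

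EZH1 (chromosome 17, 42700275 to 42745049, minus strand), the other catalytic subunit, had 38.8, 34.5 and 42.3 CPM on day 0, 45.1, 43.1 and 43.6 CPM on day 3 and 44.3, 40.6 and 39.8 CPM on day 6. The day 3 libraries lay above all day 0 libraries, while those of day 6 overlapped with day 0. On day 3 the log2 fold change was 0.19 (95% interval 0.00 to 0.37, edgeR adjusted p = 0.0949), and it passed without D0_3 (0.0414) and among genes of at least 5 CPM (0.0450), in a range up to 0.233. On day 6 it was 0.11 (-0.08 to 0.30, adjusted p = 0.296), so the interval holds both no change and a rise of the size seen on day 3.

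Counted within each library, which needs no scaling between libraries, there were 0.175 to 0.223 EZH1 counts per EZH2 count on day 0. The ratio was 0.254 to 0.270 on day 3 and 0.260 to 0.287 on day 6, above every day 0 library at both times. The mean log2 ratio was 0.40 higher on day 3 and 0.47 higher on day 6 than on day 0 (exact two-sided permutation test, p = 0.1 each, the smallest that 3 against 3 libraries allow). Day 6 and day 3 overlapped, with a difference of 0.07 (exact p = 0.3). EZH1 and EZH2 transcripts share none of their 31-base words, the length kallisto uses by default, so their counts cannot have been exchanged through identical words.

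SUZ12 (chromosome 17, 31937018 to 32001045, plus strand), which holds the complex together, had 173, 190.5 and 155 CPM on day 0. It had 129.7, 132 and 131 CPM on day 3 and 117, 122 and 108 CPM on day 6. Every library of a later day was below every library of an earlier day. The log2 fold change was -0.40 on day 3 (SE 0.08, edgeR adjusted p = 0.00297) and -0.58 on day 6 (SE 0.08, adjusted p = 0.000128). Of its 31-base words 13.4% also occur in other genes, 9.16% in the pseudogene SUZ12P1. That pseudogene, chosen after its values were seen, held counts equal to 13.3% of those of SUZ12 and was at 22.3 ± 1.37, 17.6 ± 0.254 and 16.2 ± 0.575 CPM on the 3 days (SD, n = 3). How reads were divided between them is uncertain.

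EED (chromosome 11, 86244544 to 86278813, plus strand), whose binding to the methyl mark stimulates the enzyme, had 39.2, 48.0 and 39.3 CPM on day 0, 29.2, 28.8 and 30.4 CPM on day 3 and 27.4, 30.4 and 26.1 CPM on day 6. All later libraries were below day 0, and day 3 and day 6 overlapped. Its log2 fold change of -0.52 on day 3 (SE 0.09, edgeR adjusted p = 0.0013) was followed by -0.08 from day 3 to day 6 (95% interval -0.28 to 0.13, adjusted p = 0.669). The day 3 value was 87.3% of the log2 change present on day 6. D0_2 was its highest library, and without it the log2 fold changes were -0.42 on day 3 and -0.50 on day 6 (adjusted p = 0.000313 and 3.47e-05).

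RBBP4 (chromosome 1, 32651142 to 32686211, plus strand) binds histones in PRC2 and also in the chromatin complexes NuRD, Sin3, CAF-1 and MuvB. It had 426, 522 and 451 CPM on day 0, 350.3, 368 and 366 CPM on day 3 and 331, 343 and 309 CPM on day 6, with no overlap between any 2 days. The log2 fold change was -0.37 on day 3 (SE 0.09, edgeR adjusted p = 0.00555) and -0.51 on day 6 (SE 0.09, adjusted p = 0.000387). Other genes held 12.5% of its 31-base words, mainly processed pseudogenes, of which RBBP4P1 had 5 counts in all libraries together. On the opposite strand SYNC covers 18.0% of its exon bases, and SYNC was listed at day means of 0.0112 to 0.0797 CPM.

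RBBP7 (chromosome X, 16839283 to 16870414, minus strand), the alternative histone-binding subunit, had 557, 700.3 and 585 CPM on day 0, 498, 514 and 521 CPM on day 3 and 451, 429 and 420.3 CPM on day 6. Again no library of one day reached into another day. Its log2 fold change was -0.26 on day 3 (SE 0.09, edgeR adjusted p = 0.0339) and -0.50 on day 6 (SE 0.09, adjusted p = 0.000563). The day 3 call was lost without D3_1 (0.111), D3_2 (0.0890) or D3_3 (0.0726), with only the 2 days fitted (0.0665), with library size only (0.0671) and among genes of at least 5 CPM (0.0595), in a range from 0.00890. Without D0_2, its highest library, the day 3 change was -0.16 (adjusted p = 0.0262). TXLNG, on the opposite strand, shares 2.42% of its exon bases and went from 173 to 106 CPM, a change whose part in the RBBP7 counts was not tested.

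The proportion of RBBP7 to RBBP4 was also taken within libraries. There were 1.29 to 1.34 RBBP7 counts per RBBP4 count on day 0, 1.40 to 1.43 on day 3 and 1.25 to 1.36 on day 6. The mean log2 ratio was 0.11 higher on day 3 than on day 0 without overlap (exact permutation p = 0.1), and it was 0.01 higher on day 6 with overlap (exact p = 0.8). From day 3 to day 6 it fell by 0.10 (exact permutation p = 0.1). The genes share 1 word of 31 bases.

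AEBP2 (chromosome 12, 19404045 to 19720801, plus strand), a zinc finger protein of PRC2.2 that contacts SUZ12, was, on day 6, the subunit with the largest fitted fall. It had 189, 203 and 183 CPM on day 0, 147, 147 and 152 CPM on day 3 and 120, 125 and 108 CPM on day 6. No 2 days overlapped. Its log2 fold change was -0.37 on day 3 (SE 0.08, edgeR adjusted p = 0.00278), -0.71 on day 6 (SE 0.08, adjusted p = 1.35e-05) and -0.34 from day 3 to day 6 (SE 0.08, adjusted p = 0.0102). The last call was lost without D3_3 (0.0519) and had a lowest value of 0.000517.

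JARID2 (chromosome 6, 15246296 to 15522040, plus strand), the other PRC2.2 subunit, aids recruitment of the complex to chromatin and moved the other way. It had 34.5, 28.8 and 36.7 CPM on day 0, 41.3, 38.6 and 37.0 CPM on day 3 and 47.2, 48.0 and 48.8 CPM on day 6, so that every later library was above every earlier one. On day 6 the log2 fold change was 0.53 (SE 0.09, edgeR adjusted p = 0.00046), and on day 3 it was 0.23 (SE 0.09, adjusted p = 0.0681), which did not pass. The day 3 value passed without D0_3 (0.0321), with library size only (0.0488) and among genes of at least 5 CPM (0.0384), in a range up to 0.222. From day 3 to day 6 it rose by 0.30 (SE 0.09, adjusted p = 0.0432). That call was lost in 10 of 17 alternatives, among them the fits without D0_1 (0.0513), D3_1 (0.0663), D3_2 (0.147), D3_3 (0.170), D6_1 (0.0968), D6_2 (0.104) or D6_3 (0.122), in a range from 0.00173. The others were library size only (0.0609), no filter (0.0511) and the replicate number as a block (0.0530).

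MTF2 (chromosome 1, 93079235 to 93139081, plus strand), a Polycomb-like protein that binds unmethylated CG-rich DNA, had 66.9, 79.8 and 57.5 CPM on day 0. It had 53.3, 52.1 and 52.1 CPM on day 3 and 53.3, 59.4 and 44.6 CPM on day 6. Day 3 lay below day 0, but on day 6 the library D6_2 was above D0_3. The log2 fold change was -0.37 on day 3 (SE 0.12, edgeR adjusted p = 0.0294) and -0.38 on day 6 (SE 0.12, adjusted p = 0.0213). Both calls were fragile: that of day 3 was lost without D3_1 (0.0705), D3_2 (0.0811) or D3_3 (0.0749) and with library size only (0.0749), in a range from 0.00827. That of day 6 was lost without D6_3 (0.0858), with library size only (0.0958) and among genes of at least 5 CPM (0.0566), in a range from 0.00424. Without D0_2 the changes were -0.25 (adjusted p = 0.0422) and -0.26 (0.0297).

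PHF1 (chromosome 6, 33410399 to 33416453, plus strand), another Polycomb-like protein, reads methylated lysine 36 of histone H3. It had 10.8, 12.4 and 11.2 CPM on day 0, 16.7, 14.1 and 17.7 CPM on day 3 and 18.7, 18.2 and 19.98 CPM on day 6. The 3 days did not overlap. The log2 fold change was 0.49 on day 3 (SE 0.10, edgeR adjusted p = 0.003) and 0.73 on day 6 (SE 0.10, adjusted p = 0.000101), or 0.54 and 0.78 without D0_2. All 17 alternatives kept both calls. PHF1 shares no 31-base word with another gene, and 12 of its exon bases with CUTA on the opposite strand.

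**Figure D2:**
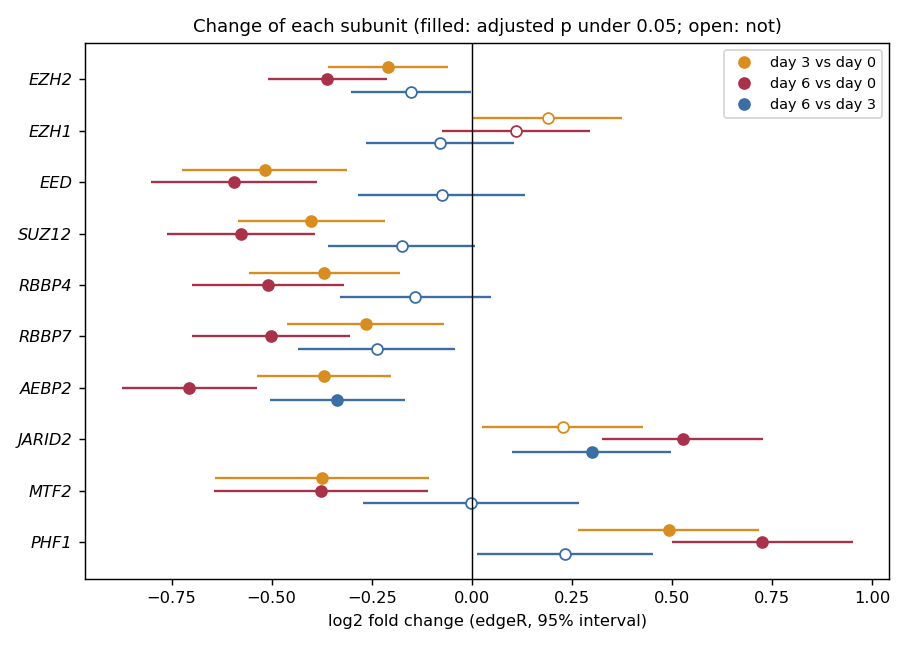
Log2 fold change of each subunit with its 95% interval (horizontal axis) in the 3 comparisons of days, with filled points for adjusted p under 0.05 (edgeR). AEBP2 lies farthest to the left on day 6 at -0.71 and PHF1 farthest to the right at 0.73, and only AEBP2 and JARID2 have filled points for day 6 against day 3.

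Of the 2 listed subunits of each accessory class, 1 thus fell and 1 rose by day 6. Their proportions, taken within libraries, differed between days. JARID2 counts per MTF2 count were 0.360 to 0.639 on day 0, 0.710 to 0.775 on day 3 and 0.807 to 1.09 on day 6, with no overlap. The mean log2 ratio was 0.59 higher on day 3 and 0.91 higher on day 6 (exact permutation p = 0.1 each, the smallest possible). The other 2 pairs were chosen after their values were seen and carry no test. JARID2 counts per AEBP2 count were 0.141 to 0.201 on day 0, 0.244 to 0.282 on day 3 and 0.383 to 0.452 on day 6, a rise in the mean log2 ratio of 1.24. PHF1 counts per MTF2 count were 0.155 to 0.195, 0.270 to 0.339 and 0.307 to 0.448, a rise of 1.10 by day 6.

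**Figure D3:**
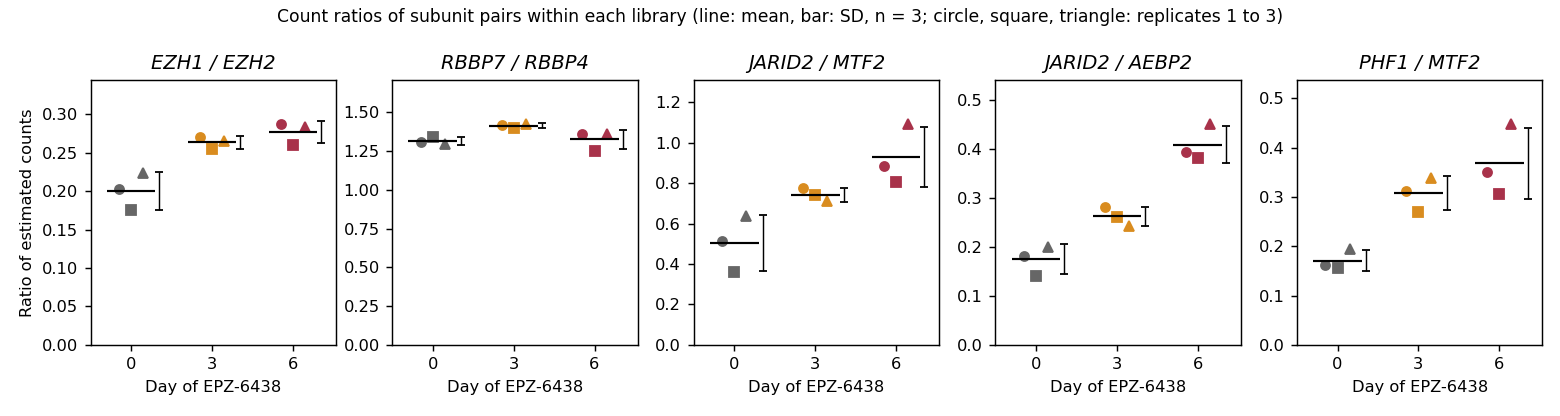
Ratio of estimated counts of 2 subunits within each library (vertical axes, each from 0) by day of EPZ-6438, with 1 point per library, a line at the mean and a bar of 1 SD (n = 3). The JARID2 to AEBP2 ratio rises from at most 0.201 on day 0 to at least 0.383 on day 6, while the RBBP7 to RBBP4 ratio stays between 1.25 and 1.43.

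From day 3 to day 6, 1 of the 10 subunits was lower (AEBP2) and 1 higher (JARID2), where 4.76% and 11.5% of all genes were. The libraries of these days did not overlap for 7 of the 10, where 43.5% of all genes did not. Against day 0 they did not overlap for 10 of 10 on day 3 (53.8% of all genes) and for 8 of 10 on day 6 (58.7%). Without D0_2, a library of neither day, 4 subunits were lower from day 3 to day 6: EZH2 (adjusted p = 0.0352), SUZ12 (0.0324), RBBP7 (0.00249) and AEBP2 (0.000524). That fit also called more of all genes, 4681 in either direction, where the fit of all 9 libraries called 2497. A contrast of the second 3 days with the first 3 passed for none of the 10, against 7.57% of all genes. It came closest for EED (difference 0.44, 95% interval 0.08 to 0.80, edgeR adjusted p = 0.124), and EED alone had an unadjusted p under 0.05. DESeq2 also called none of the 10.

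Levels of different genes were compared per kilobase (kb) of the longest coding transcript. RBBP7 was first on day 0 with 263 ± 32.7 CPM per kb, then EZH2 with 73.1 ± 1.497, RBBP4 with 58.7 ± 6.30, SUZ12 with 38.5 ± 3.93 and AEBP2 with 37.6 ± 2.08 CPM per kb (SD, n = 3). EED with 19.0 ± 2.26, MTF2 with 16.5 ± 2.72, EZH1 with 8.34 ± 0.843, JARID2 with 5.79 ± 0.714 and PHF1 with 4.92 ± 0.345 CPM per kb followed. SUZ12 and AEBP2 overlapped on day 0, as did EED and MTF2, and JARID2 and PHF1. On day 6 the first 5 places were the same, and JARID2 (8.34 ± 0.133) and PHF1 (8.14 ± 0.392) were close behind EZH1 (8.99 ± 0.510 CPM per kb). The order rests on the length used: per kb of all exons together RBBP4 (49.2) stood before EZH2 (42.7 CPM per kb) on day 0. On that length JARID2 (7.98 ± 0.127) lay above EZH1 (5.95 ± 0.337 CPM per kb) on day 6 without overlap, and EED was last on day 3 (4.198) and day 6 (3.98 CPM per kb).

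**Figure D4:**
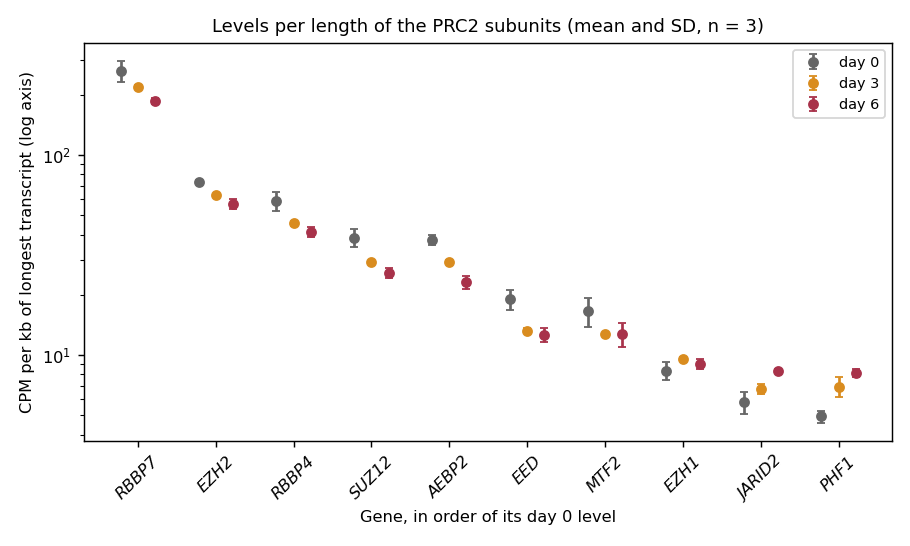
Level of each subunit in CPM per kb of its longest coding transcript (vertical log axis) on day 0, day 3 and day 6, as mean and SD of 3 libraries, in the order of day 0. RBBP7 is highest on every day, and the distance between EZH1 and the pair JARID2 and PHF1 is smaller on day 6 than on day 0.

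Over the 9 libraries the 7 subunits that fell were positively correlated in all 21 pairs, with Pearson r of log2 CPM from 0.78 (RBBP7 and MTF2) to 0.99 (EZH2 and AEBP2). With JARID2 and PHF1 all 14 pairs were negative, from -0.98 to -0.67. These values are descriptive, since the libraries share their day and scaling. The groups were also formed by the direction of the day 6 change in these same libraries, which by itself favors these signs. After the mean of each day was subtracted, the 21 pairs were still positive, from 0.43 (EZH2 and RBBP7) to 0.97 (SUZ12 and MTF2), while 6 of the 14 pairs with JARID2 and PHF1 were positive as well. All 7 were highest of their day in D0_2 and lowest of their day in D6_3, and the part of these libraries in the correlations was not tested. The scaling factor of D0_2 was 0.905, the smallest of the 9, where the others lay between 0.981 and 1.06.

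**Figure D5:**
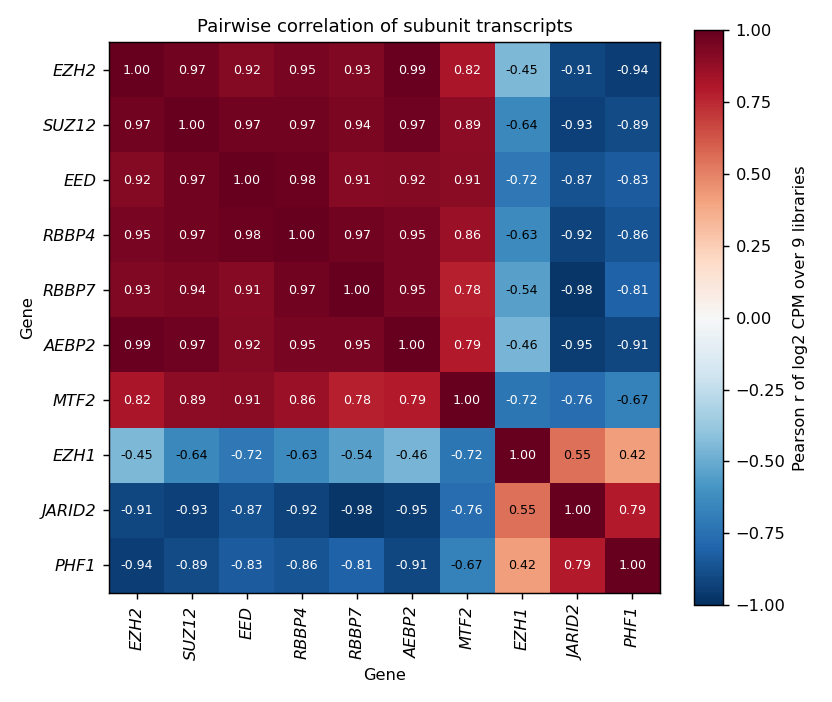
Pearson r of log2 CPM over the 9 libraries for each pair of subunits (both axes list the genes, and color runs from -1 in blue to 1 in red). The block of 7 subunits from EZH2 to MTF2 is red, and JARID2 and PHF1 are blue against it, down to -0.98.

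Among 9847 other genes averaging 10 CPM or more, those whose log2 CPM followed EZH2 most closely over the 9 libraries were TOPBP1 (r = 0.995), ZBTB18 (0.994) and SENP1 (0.994). For SUZ12 they were GOPC, GLRX2 and DNM1L (0.994 each), and for EED they were PHF10 (0.996), SAR1A (0.993) and AC068631.2 (0.993). EZH1 was followed less closely, by EIF2AK3 (0.966), EPB41 (0.955) and CCDC162P (0.947). TOPBP1 went from 305 on day 0 to 229.7 and 184 CPM, and EIF2AK3 from 8.30 to 13.2 and 11.99 CPM. Such r are descriptive as well, being the highest of 9847 over libraries that share their day and scaling.

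Of 5 further PRC2 partners, 1 rose by day 6 and none fell, where 28.9% of all genes were higher and 25.7% lower. The rise of 1 in 5 was near that share. EZHIP, whose protein binds PRC2 and inhibits its activity, had 3, 2 and 4 counts in the day 0 libraries, 39, 48 and 40 on day 3 and 130, 97 and 100 on day 6. In CPM this was 0.124 ± 0.0561, 1.60 ± 0.143 and 4.29 ± 0.0974 (SD, n = 3), a log2 fold change on day 6 of 5.11 (SE 0.27, edgeR adjusted p = 3.8e-08). EZHIP passed the filter on low counts through its later days alone, and the size of that fold rests on a few day 0 counts. The third Polycomb-like gene, PHF19, had 36.6 ± 1.72 CPM on day 0 and 41.6 ± 4.28 CPM on day 6 and did not pass (log2 fold change 0.19, SE 0.09, adjusted p = 0.0873). EPOP, LCOR and LCORL, which join PRC2.1, did not pass either.

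Of 20 genes of Polycomb repressive complex 1, which binds the PRC2 mark and ubiquitinates histone H2A, 3 rose and 5 fell by day 6, with a median log2 fold change of 0.04. Over all genes tested, 28.9% were higher and 25.7% lower on day 6, and of those averaging 5 CPM or more 22.7% and 34.2%, so the falls were near the background. CBX7, a reader of the PRC2 mark, went from 13.0 ± 1.15 to 27.7 ± 1.57 CPM, PHC1 from 49.7 ± 0.886 to 85.6 ± 5.36 CPM, and PCGF6 fell from 13.9 ± 2.34 to 8.98 ± 0.560 CPM (SD, n = 3). Of 9 tested genes that oppose PRC2 on chromatin 4 fell and none rose, with a median of -0.30, a share of falls near that of all genes averaging 5 CPM or more (34.2%). They include NSD3, a methyltransferase for lysine 36 (236 ± 21.7 to 177 ± 10.7 CPM), KDM6A, a demethylase of lysine 27 (85.3 ± 6.76 to 65.3 ± 4.04 CPM), and SETD2 (128 ± 16.9 to 101.3 ± 7.65 CPM). KDM6A lost its call with library size only (adjusted p = 0.0613), and SETD2 there (0.136), among genes of at least 5 CPM (0.0573) and without D0_1 (0.0544). Of 14 SWI/SNF remodelling genes 1 rose, SMARCD3 (13.0 ± 0.476 to 39.5 ± 3.17 CPM), and 6 fell, PBRM1 and SMARCC1 among them, with a median of -0.21. That share of falls is also near the 34.2%.

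Of 20 partners that share RBBP4 or RBBP7 with PRC2 in other complexes 12 fell by day 6 and none rose, with a median log2 fold change of -0.26. Lower were 25.7% of all genes and 34.2% of those averaging 5 CPM or more, and higher were 28.9% and 22.7%. CHAF1B, a subunit of the chromatin assembly factor CAF-1, went from 92.2 ± 4.15 to 56.8 ± 1.06 CPM, LIN9 of MuvB from 37.1 ± 3.55 to 26.8 ± 1.98 CPM, and the histone acetyltransferase HAT1 from 102 ± 24.3 to 63.9 ± 5.55 CPM (SD, n = 3). Of 24 proliferation genes, several of them E2F targets, 14 fell and none rose, with a median of -0.38, beside the same background of 25.7% and 34.2%. RRM2 went from 352 ± 25.9 to 189 ± 5.65 CPM, CDC6 from 131 ± 7.46 to 72.9 ± 4.07 CPM and CCNE2 from 68.0 ± 8.99 to 36.3 ± 2.81 CPM. The other 10 did not pass, among them, named after their values were seen, MKI67 (490 ± 139.9 and 454 ± 19.9 CPM on day 0 and day 6), TOP2A (590.4 ± 27.5 and 653 ± 78.6 CPM), CCNB1 and CCNA2. The summed level of the 24 was 5307 to 5701 CPM per library on day 0 and 4576 to 4825 CPM on day 6. Its part in the lower levels of EZH2 and its partners was not tested.

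Of 22 textbook targets of PRC2, 18 were tested, and by day 6 11 had risen and 2 had fallen (28.9% and 25.7% of all genes), with a median log2 fold change of 1.36 (all genes 0.01). Silent genes enter such a test through later counts alone, which favors rises. Of the 18, 3 had no day 0 counts (GATA4, PAX2 and TBX5), WNT1 had 6 over the day 0 libraries, and WT1, given below, had fewer. All of these are among the 11 that rose, so neither that count nor the median is a fair comparison with all genes. PAX9, a foregut transcription factor, went from 0.4398 ± 0.134 to 7.07 ± 0.110 CPM and MYT1, a neural factor, from 1.37 ± 0.302 to 8.55 ± 0.837 CPM (SD, n = 3). WT1 had 1 count over the day 0 libraries and 290 over those of day 6. HOXA9 and HOXA10, chosen after their values were seen, fell by 0.29 (edgeR adjusted p = 0.0218) and 0.34 (0.0128) on the log2 scale.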

How the data were processed

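The deposited table holds estimated counts per gene symbol, whole numbers not scaled to a common total. Per the submitters' processing notes, bcl2fastq 2.19, kallisto 0.44.0 and DESeq2 were used, and the builds GRCh38, GRCm38 and hg38 are named without a role. How transcripts were summed to genes, and whether strand was used, is not given in the sources used here. Groups came from the sample titles and columns from the sample descriptions.

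The deposited estimated counts were rounded, filtered with filterByExpr (minimum count 10, 15345 genes kept), scaled by TMM and tested with edgeR 4.0.16 (quasi-likelihood F-test, R 4.3.3) in 1 fit of 9 libraries with a mean per day. P-values were adjusted over all genes tested by Benjamini-Hochberg, with a threshold of 0.05. The standard error was the log2 fold change divided by the square root of F. CPM used TMM-scaled library sizes, and r used log2 CPM with a prior count of 2. Between 21638874 and 31235055 counts per library, 3 counts equal 0.098 to 0.141 CPM. Ratios of subunits were taken from counts within a library. Gene models, lengths and shared words of 31 bases came from GENCODE 29 (GRCh38, 1-based coordinates), promoters from RefSeq. Only the edgeR fit was tried on simulated counts, with changes placed in day 6 alone.

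Alternatives were other scalings (median-ratio factors, library size only), other filters (none, or an average of 5 CPM or more), other tools (DESeq2 1.42.0 and limma 3.58.1 with voom), a fit to the compared days alone, a block for the replicate number, and each library left out. All 10 subunits are named in each comparison. Of each other list up to 3 called genes with the lowest p on day 6 are named, or the 2 most abundant where none was called, and the 3 genes most like each of EZH2, SUZ12, EED and EZH1. Members and lists were chosen with earlier results of these data known.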

Additional observations from a re-analysis of the deposited data

How the results depend on the processing

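On day 6 against day 0 the counts of subunits called stayed within 1.5 times of 7 lower and 2 higher in every alternative run. On day 3 the count of lower subunits was 4 with library size only and 4 to 7 with 1 library left out (4 without D3_1, D3_2 or D3_3), and that of higher subunits was 2 with library size only, 3 among genes of at least 5 CPM and 1 to 3 with 1 library left out (3 without D0_3). From day 3 to day 6 the lower count was 3 with only the 2 days fitted and 0 to 4 with 1 library left out (0 without D3_3, 4 without D0_2). The higher count was 0 with library size only, with no filter and with the replicate number as a block, and 0 to 1 with 1 library left out. Of all genes, 2497 were called from day 3 to day 6. This became 1249 among genes of at least 5 CPM, 4331 with only the 2 days fitted and 1606 to 4681 with 1 library left out (1606 without D3_2, 4681 without D0_2). The contrast of the second with the first 3 days called 1162 genes, and 406 to 2764 with 1 library left out. The replicate numbers did not pair the libraries: deviations from the day means correlated at -0.15 to 0.21 for the 9 same-numbered pairs and at -0.26 to 0.24 for the 18 others. Beyond the JARID2 call above, the block changed no call of a subunit between days.

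Values near 0 changed sign. The day 3 to day 6 log2 change of MTF2 was 0.00147 with median-ratio factors, 0.036 with library size only, 0.032 among genes of at least 5 CPM and 0.00143 with DESeq2, and ran from -0.10 to 0.10 with 1 library left out. In the contrast of both 3-day steps, RBBP7 was at -0.021 and AEBP2 at -0.010 with library size only. With 1 library left out RBBP7 ran from -0.076 to 0.092, AEBP2 from -0.014 to 0.093 and JARID2 from -0.0014 to 0.17. The log2 RBBP7 to RBBP4 difference of day 6 from day 0 ran from -0.010 to 0.050 with 1 library left out. Library size only moved all genes by a median of 0.12 on day 6 (log2), so EZH2 was at -0.24 there. The cause of these changes was not tested.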
